A study of Mus musculus with 9 samples.

Results

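The subject is a group of 9 genes tied to the change of epithelial cells into mesenchymal-like ones: the transcription factors Snai1, Snai2, Twist1, Twist2, Zeb1, Zeb2 and Prrx1, and the structural products Vim and Fn1. They were chosen by name and are 9 of the 47069 genes counted. All 9 were matched to a counted gene and all 9 passed the filter on low counts. They were measured by RNA sequencing of tumour tissue from mice, in 3 distal metastases, 3 proximal metastases in the epididymal fat and 3 primary prostate tumours. Every group came from C57BL/6 animals aged 9 to 10 months in which, among their engineered changes, exon 3 had been removed from 1 copy of Ctnnb1 in the prostate to stabilise beta-catenin, so the primary tumours share this genotype with the metastases and no tumour-free prostate was compared. The promoter that drives the deletion is not named in the labels. The site of the distal samples is given as diaphragm in a tissue label but as lung in the growth protocol, so they are only called distal. Samples were matched within 3 mice, but the labels do not tie a sample to a mouse, so p-values treat the 9 libraries as independent, and libraries 1, 2 and 3 of different groups are not pairs.

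In an epithelial-mesenchymal transition, cells lose the junctions and keratins of an epithelium and gain migratory, fibroblast-like traits. The zinc finger proteins Snai1 and Snai2 and the zinc finger and homeodomain proteins Zeb1 and Zeb2 bind E-box motifs and repress epithelial genes such as Cdh1, the gene of E-cadherin. The helix-loop-helix proteins Twist1 and Twist2 and the homeodomain protein Prrx1 act in embryonic mesenchyme and can drive the same change, while Vim encodes the intermediate filament protein vimentin and Fn1 the matrix protein fibronectin. All 9 genes are also active in fibroblasts and other stromal cells, and in bulk tissue fewer cells of a type and less RNA per cell cannot be told apart.

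Promoter windows of 300 bases (250 before to 50 after the transcription start, RefSeq, build GRCm38.p6) were found for Snai1, Twist1, Twist2, Zeb2, Prrx1 and Vim, 6 of the 9 genes. The windows of Vim (chr2:13574061-13574360, plus strand), Snai1 (chr2:167537945-167538244, plus strand) and Twist1 (chr12:33957421-33957720, plus strand) are shown because these 3 genes moved together once primary 1 was left out, a choice made after their values were seen. Capitals mark matches to CACCTG, the E-box bound by Snail and Zeb proteins, or to TATAAA, the TATA box.
Vim: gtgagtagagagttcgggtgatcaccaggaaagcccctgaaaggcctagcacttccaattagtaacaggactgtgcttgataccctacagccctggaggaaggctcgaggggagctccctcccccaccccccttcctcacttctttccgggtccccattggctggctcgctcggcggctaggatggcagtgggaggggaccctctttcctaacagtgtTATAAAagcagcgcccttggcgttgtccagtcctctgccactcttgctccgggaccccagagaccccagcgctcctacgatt
Snai1: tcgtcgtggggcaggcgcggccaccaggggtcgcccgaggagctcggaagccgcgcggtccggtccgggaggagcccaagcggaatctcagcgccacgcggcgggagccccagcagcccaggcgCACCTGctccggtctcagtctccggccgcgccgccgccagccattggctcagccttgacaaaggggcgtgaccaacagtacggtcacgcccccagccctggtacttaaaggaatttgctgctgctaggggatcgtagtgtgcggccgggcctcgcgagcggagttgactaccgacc
Twist1: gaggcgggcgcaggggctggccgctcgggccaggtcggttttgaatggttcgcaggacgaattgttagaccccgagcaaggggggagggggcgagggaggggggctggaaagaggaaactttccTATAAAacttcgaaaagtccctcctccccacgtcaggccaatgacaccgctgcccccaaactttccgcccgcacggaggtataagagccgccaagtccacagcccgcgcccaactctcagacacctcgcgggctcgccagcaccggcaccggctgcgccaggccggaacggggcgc
Both strands were searched for CACCTG, for the general E-box CANNTG, which includes every CACCTG, for the TCF/LEF letters CTTTGAT and CTTTGAA, for the AP-1 letters TGANTCA and for TATAAA. The Snai1 window held a single E-box, a CACCTG at position -126 from the start, a motif found in 20.2% of the 32851 RefSeq windows. No CANNTG was found in the windows of Twist1, Twist2, Zeb2, Prrx1 or Vim, where 72.3% of all windows held at least 1. The Vim window held TATAAA at position -32 and the Twist1 window held it at position -126, against a share of 13.6% over all windows. TGANTCA, present in 7.81% of all windows, was matched 2 times in 1 of the 4 Zeb2 windows. CTTTGAT and CTTTGAA, in 3.73% and 5.14% of all windows, were in none of the windows of these 6 genes. These matches describe letters in the windows alone.

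Total counts ranged from 28334730 to 40408723 per library. The primary libraries did not form an even group. The mean Pearson correlation of log2 CPM with the metastases was 0.975 for primary 1, against 0.868 for primary 2 and 0.907 for primary 3. Ctnnb1, the engineered gene, stood at 3549 to 4451 CPM in distal metastases, 3621 to 4955 CPM in proximal metastases and 4393 CPM in primary 1, but at 936 CPM in primary 2 and 1769 CPM in primary 3 (CPM are counts scaled to library totals with TMM factors, which adjust for composition). The count covers the whole gene, so it does not check the deletion of its exon. The 11 markers of prostate epithelium summed to 2294 to 2411 CPM in distal metastases, 1748 to 2593 CPM in proximal metastases and 2589, 10825 and 6035 CPM in primary 1, 2 and 3. Pbsn, the androgen-driven secretory protein of the mouse prostate, reached 211 CPM in primary 2 and 11.8 CPM in primary 3, against 0.483 CPM in primary 1, and had no count in distal 2 and distal 3. Mean correlation with the other primary libraries was 0.898 for primary 1, 0.901 for primary 2 and 0.927 for primary 3. The TMM factor was 1.05, 0.796 and 1.04 in the same order. By this correlation primary 2 stood about as far from the other primary tumours as primary 1 did. Because primary 1 was the primary library most like the metastases, each comparison below is given with all 9 libraries and again without primary 1. This leaves 2 primary libraries. For each of the 9 genes the fold change without primary 2 is also given. Primary 1 was picked from these same data, and leaving out the primary library most like the metastases widens differences at large. Genes called rose from 16 to 5203 in distal and from 9 to 5447 in proximal metastases. Adjusted p-values without primary 1 are therefore descriptive and not independent tests.

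With all 9 libraries, none of the 9 genes passed edgeR's quasi-likelihood test at a Benjamini-Hochberg adjusted p below 0.05 against primary tumours at either metastatic site. Among all 18204 genes tested, 0.0879% passed in distal metastases and 0.0494% in proximal metastases, in each case all lower than in primary tumours. With both sites together 3.71% passed, of which those higher in metastases made up 0.033% of the genes tested, and again none of the 9 did. At an unadjusted p below 0.05 the 9 genes gave 1 (Twist1) in distal, 0 in proximal and 1 (Twist1) in both sites together. Of all 18204 genes tested, 3165 in distal, 3313 in proximal and 4483 in both sites together had such a p. These counts are also the background for the unadjusted counts of the lists further below. DESeq2 called Twist1 in distal metastases and in both sites together and none of the 9 in proximal metastases, limma-voom called none, and voom with sample quality weights called Vim in all 3 of these comparisons. Over all genes DESeq2 called 1444 in distal, 1486 in proximal and 2590 in both sites together, and quality weights 3127, 3607 and 3871. Without primary 1, Vim, Snai1 and Twist1 passed the edgeR test in each of these comparisons, 3 of 9 genes and all higher in metastases, where 13.2% of the 19009 genes tested then passed as higher in distal, 13.8% in proximal and 16.2% in both sites together. In either direction 27.4% passed in distal, 28.7% in proximal and 34.8% in both sites together. The median log2 fold change of the 9 genes was 0.70 in distal and 0.33 in proximal metastases with all libraries, against medians of -0.03 and -0.05 over all tested genes. Without primary 1 it was 1.33 in distal and 0.83 in proximal metastases. With primary 2 left out instead, it was 0.17 in distal and 0.11 in proximal metastases, and none of the 9 genes passed the edgeR test.

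**Figure D1:**
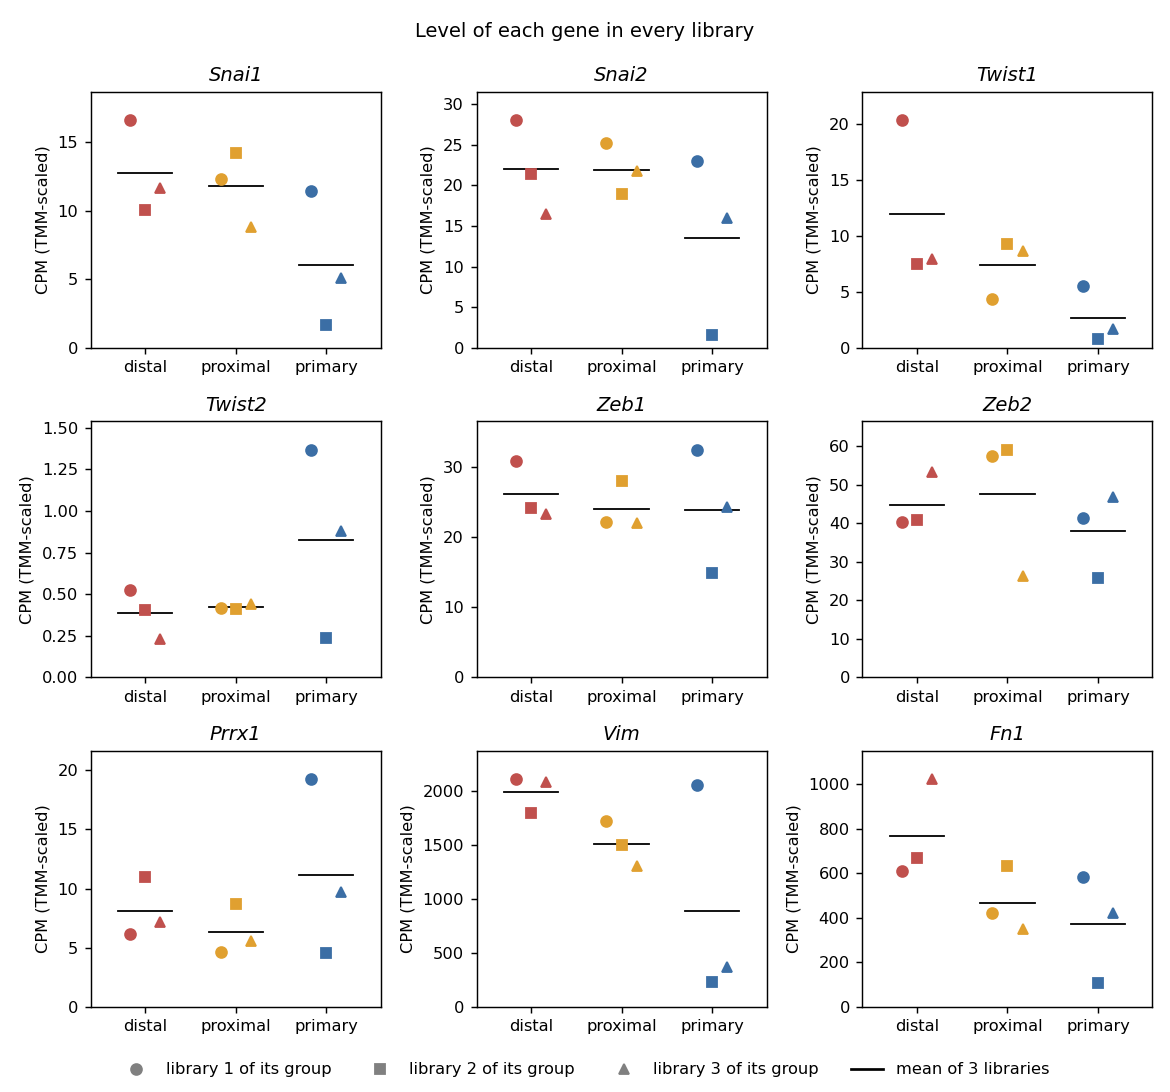
Level of each of the 9 genes in every library, in CPM (linear axes from 0), for distal metastases, proximal metastases and primary tumours. Symbols mark the library number within its group and lines the group means of 3 libraries, and for Vim, Snai1 and Twist1 primary 1 lies within the range of the metastases while primary 2 and primary 3 lie below it.

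Snai1 (ENSMUSG00000042821, chromosome 2, 167538195 to 167542814, plus strand, GRCm38), a short-lived repressor of the Snail family, had 16.6, 10.0 and 11.7 CPM in distal metastases, 12.4, 14.2 and 8.80 CPM in proximal metastases and 11.4, 1.64 and 5.12 CPM in primary 1, 2 and 3. Primary 2 and primary 3 lay below every metastasis, and primary 1 lay among them. Set against primary tumours, the log2 fold change was 1.07 (SE 0.60, adjusted p = 0.353) in distal and 0.96 (SE 0.60, adjusted p = 0.364) in proximal metastases by edgeR. Without primary 1, Snai1 was 3.81-fold higher in distal metastases (log2 1.93, SE 0.52, adjusted p = 0.0331) and 3.52-fold higher in proximal metastases (log2 1.82, SE 0.52, adjusted p = 0.0378). With primary 2 left out instead, the log2 fold change was 0.63 in distal and 0.51 in proximal metastases, and neither passed.

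Snai2 (ENSMUSG00000022676, chromosome 16, 14705852 to 14709385, plus strand), the paralog known as Slug from neural crest and basal epithelium, had 28.0, 21.4 and 16.5 CPM in distal metastases, 25.2, 18.9 and 21.7 CPM in proximal metastases and 23.0, 1.64 and 16.0 CPM in primary 1, 2 and 3. Only primary 2 was far from the rest, and primary 3 lay just under the lowest metastasis. The highest primary level was 14.0 times the lowest, against 1.69 times over the 6 metastases. Its log2 fold change was 0.70 (SE 0.72, adjusted p = 0.561) in distal and 0.69 (SE 0.72, adjusted p = 0.549) in proximal metastases. Without primary 1 it was 1.33 in each, still short of the threshold (edgeR adjusted p = 0.235 in distal and 0.232 in proximal). With primary 2 left out instead, it was 0.17 in each. The Snai1 level per kilobase of exon was 0.585 to 0.880 times that of Snai2 in distal metastases, 0.505 to 0.941 times in proximal metastases and 0.620, 1.25 and 0.399 times in primary 1, 2 and 3.

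Twist1 (ENSMUSG00000035799, chromosome 12, 33957671 to 33959829, plus strand), a regulator of cranial and limb mesenchyme, had 20.4, 7.52 and 7.96 CPM in distal metastases, 4.33, 9.28 and 8.63 CPM in proximal metastases and 5.55, 0.780 and 1.70 CPM in primary 1, 2 and 3. Every distal library was above every primary one, as was the case for 8.4% of all tested genes, while proximal 1 lay below primary 1. Distal 1 was the highest library, and the 6 metastases spanned a 4.70-fold range, wider than for 90.8% of the tested genes. With all libraries the log2 fold change was 2.15 (SE 0.75, adjusted p = 0.225) in distal and 1.46 (SE 0.74, adjusted p = 0.305) in proximal metastases. Without primary 1, Twist1 was 9.71-fold higher in distal metastases (log2 3.28, SE 0.68, edgeR adjusted p = 0.0144) and 6.03-fold higher in proximal metastases (log2 2.59, SE 0.66, adjusted p = 0.0264), the largest fold changes among the 9 genes. With primary 2 left out instead, the log2 fold change was 1.72 in distal and 1.03 in proximal metastases, and neither passed.

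Twist2 (ENSMUSG00000007805, chromosome 1, 91801461 to 91848028, plus strand), the paralog known as Dermo1 from dermal mesenchyme, was close to the detection limit, with 21, 17 and 7 counts in distal metastases, 16, 16 and 18 counts in proximal metastases and 51, 6 and 26 counts in primary 1, 2 and 3. In CPM these were 0.524, 0.404 and 0.233 in distal metastases, 0.417, 0.408 and 0.440 in proximal metastases and 1.37, 0.234 and 0.882 in primary tumours. Here primary 1 and primary 3 were above every metastasis and primary 2 was among the lowest libraries. The exact 95% Poisson interval of primary 1, 1.02 to 1.80 CPM, lay above that of every metastasis, of which the highest upper bound was 0.802 CPM in distal 1, and that of primary 3, 0.576 to 1.29 CPM, did not. These intervals, and those of the ratios that follow, cover counting error only. Fold changes were negative, at log2 -1.09 (SE 0.59, adjusted p = 0.343) in distal and -0.98 (SE 0.59, adjusted p = 0.352) in proximal metastases. Without primary 1 it was -0.51 in distal and -0.39 in proximal metastases (edgeR adjusted p = 0.545 and 0.636). With primary 2 left out instead, it was -1.52 in distal and -1.41 in proximal metastases, and neither passed.

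Within a library, the Twist1 level per kilobase of exon was 75.7, 36.2 and 66.6 times that of Twist2 in distal metastases, 20.2, 44.4 and 38.2 times in proximal metastases and 7.91, 6.50 and 3.75 times in primary 1, 2 and 3. All 6 metastases had a higher ratio than all 3 primary libraries, including primary 1, which for most of these genes resembled the metastases. This ratio was looked at after the values of both genes were seen, so it is given as a description with no test. The exact 95% binomial intervals were 12.1 to 36.2 in proximal 1, the lowest metastasis, and 5.80 to 10.97 in primary 1. In primary 2, where Twist2 had 6 counts and Twist1 20, the interval of 2.52 to 19.8 overlapped that of proximal 1.

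**Figure D2:**
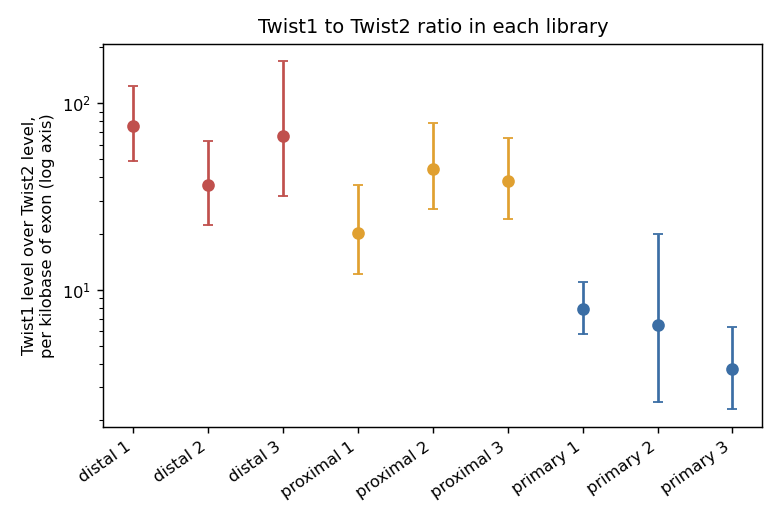
Twist1 level over Twist2 level, each per kilobase of exon, in each library on a log axis, with exact 95% binomial intervals that cover counting error only. The 6 metastases lie between 20.2 and 75.7 and the 3 primary tumours between 3.75 and 7.91.

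Zeb1 (ENSMUSG00000024238, chromosome 18, 5591860 to 5775467, plus strand), the E-box repressor held down by miR-200 in epithelial cells, had 30.9, 24.3 and 23.4 CPM in distal metastases, 22.2, 28.1 and 22.0 CPM in proximal metastases and 32.5, 14.97 and 24.3 CPM in primary 1, 2 and 3. Primary 2 was the lowest library and primary 1 the highest, and the groups overlapped. Its log2 fold change was 0.13 (SE 0.28, adjusted p = 0.787) in distal and 0.01 (SE 0.28, adjusted p = 0.988) in proximal metastases. Without primary 1 it was 0.43 in distal and 0.31 in proximal metastases (SE 0.26 and 0.25, edgeR adjusted p = 0.236 and 0.375), and without primary 2 its sign turned, to -0.12 in distal and -0.24 in proximal metastases.

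Zeb2 (ENSMUSG00000026872, chromosome 2, 44983632 to 45117395, minus strand), its paralog, which is also active in neural crest and in macrophages, had 40.3, 40.7 and 53.3 CPM in distal metastases, 57.5, 59.0 and 26.3 CPM in proximal metastases and 41.4, 25.7 and 46.7 CPM in primary tumours. Proximal 3 and primary 2 were low and the other 7 libraries lay between 40.3 and 59.0 CPM. The log2 fold change was 0.24 (SE 0.34, adjusted p = 0.671) in distal and 0.33 (SE 0.34, adjusted p = 0.550) in proximal metastases, and 0.32 and 0.41 without primary 1 (edgeR adjusted p = 0.563 and 0.452). With primary 2 left out instead, it was 0.02 in distal and 0.11 in proximal metastases. The 10 macrophage markers summed to 346, 344 and 651 CPM in distal metastases, 266, 468 and 241 CPM in proximal metastases and 506, 926 and 804 CPM in primary 1, 2 and 3, and their part in the Zeb2 levels was not tested. Zeb2 overlaps Zeb2os on the other strand (31 to 124 counts per library), and without a stated strand setting reads of the pair cannot be told apart. The Zeb1 level per kilobase was 0.749 to 1.63 times that of Zeb2 over the 9 libraries.

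Prrx1 (ENSMUSG00000026586, chromosome 1, 163245119 to 163313710, minus strand), a homeobox gene of limb and craniofacial mesenchyme, had 6.12, 10.97 and 7.16 CPM in distal metastases, 4.67, 8.69 and 5.57 CPM in proximal metastases and 19.3, 4.52 and 9.73 CPM in primary 1, 2 and 3. Primary 1 was the highest library by far and primary 2 the lowest. The log2 fold change was -0.47 (SE 0.52, adjusted p = 0.585) in distal and -0.82 (SE 0.52, adjusted p = 0.366) in proximal metastases. Without primary 1 these became 0.20 in distal and -0.16 in proximal metastases (edgeR adjusted p = 0.761 and 0.804), so the sign in distal metastases rested on that library. With primary 2 left out instead, they were -0.84 in distal and -1.20 in proximal metastases, and neither passed. The 10 fibroblast markers, led by Col1a1, were also highest in primary 1: they summed to 1335, 1595 and 1220 CPM in distal metastases, 1278, 2060 and 1018 CPM in proximal metastases and 2366, 869 and 1478 CPM in primary 1, 2 and 3. With all 9 libraries none of the 10 passed the test in any of the comparisons against primary tumours (edgeR, 2 or 3 at an unadjusted p below 0.05). Without primary 1 or without primary 2, 1 of the 10 was lower in both sites together and 0 in either site alone. In either direction, 34.8% of all genes tested without primary 1 passed in both sites together, 27.4% in distal and 28.7% in proximal metastases. Over the whole table without primary 2, 251 genes passed in both sites together, 26 in distal and 22 in proximal metastases. Their part in the Prrx1 levels was not tested.

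Vim (ENSMUSG00000026728, chromosome 2, 13573927 to 13582826, plus strand), the filament protein of mesenchymal cells, had 2112, 1796 and 2082 CPM in distal metastases, 1720.1, 1500.5 and 1302 CPM in proximal metastases and 2062, 226 and 371 CPM in primary 1, 2 and 3. Its level per kilobase was above that of 99.5% to 99.7% of all tested genes in the metastases and 99.8% in primary 1, against 92.4% in primary 2 and 97.1% in primary 3. Primary 1 was as high as the distal metastases, and the other primary tumours lay far below every metastasis. With all libraries the mean was 1997 ± 175 CPM in distal metastases, 1508 ± 209 CPM in proximal metastases and 887 ± 1021 CPM in primary tumours (SD, n = 3 each), and the log2 fold change of 1.17 in distal and 0.77 in proximal metastases (SE 0.72 each) did not pass the test (edgeR adjusted p = 0.379 and 0.508). Without primary 1, Vim was 6.77-fold higher in distal metastases (log2 2.76, SE 0.27, adjusted p = 0.00157) and 5.12-fold higher in proximal metastases (log2 2.36, SE 0.27, adjusted p = 0.00209). With primary 2 left out instead, the log2 fold change was 0.72 in distal and 0.31 in proximal metastases, and neither passed.

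Fn1 (ENSMUSG00000026193, chromosome 1, 71585520 to 71653200, minus strand), the fibronectin gene, had 612, 669 and 1023 CPM in distal metastases, 423, 631 and 349 CPM in proximal metastases and 581, 109 and 423 CPM in primary 1, 2 and 3. All distal libraries were above all primary ones, as for Twist1 and for 8.4% of all tested genes, though distal 1 stood only just above primary 1. Proximal and primary libraries overlapped, and primary 2 alone was far below the rest. With all libraries the log2 fold change was 1.05 (SE 0.55, adjusted p = 0.336) in distal and 0.33 (SE 0.54, adjusted p = 0.699) in proximal metastases. Without primary 1 it was 1.55 in distal and 0.83 in proximal metastases (SE 0.58 and 0.57), and neither passed the test (edgeR adjusted p = 0.0886 and 0.291). With primary 2 left out instead, it was 0.62 in distal and -0.10 in proximal metastases.

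**Figure D3:**
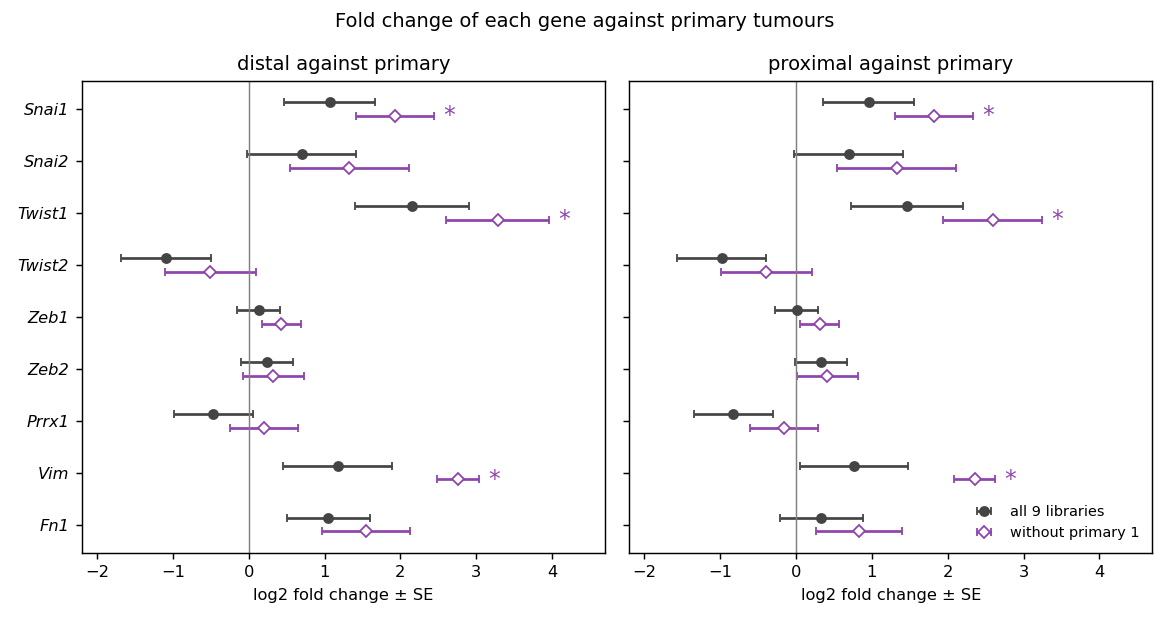
Log2 fold change (± SE) of each of the 9 genes in distal metastases (left) and proximal metastases (right) against primary tumours, with all 9 libraries (filled circles) and without primary 1 (open diamonds). Stars mark an edgeR adjusted p below 0.05, reached by Snai1, Twist1 and Vim without primary 1 and by none of the 9 with all libraries. Primary 1 was picked for leaving out from these same data, so the stars are descriptive.

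Between distal and proximal metastases none of the 9 genes passed the edgeR test, with all 9 libraries or without primary 1, and none had an unadjusted p below 0.05. Of the 18204 genes tested 0% passed and 375 had an unadjusted p below 0.05. DESeq2 called 85 genes and limma-voom 0, and neither called any of the 9. Vim was the only one of the 9 genes whose 3 distal libraries, at 1796 to 2112 CPM, all lay above the 3 proximal ones, at 1302 to 1720.1 CPM (log2 0.41, SE 0.71), a pattern that 4.03% of all tested genes showed in that direction. Fn1 was 768 ± 223 CPM in distal and 468 ± 146 CPM in proximal metastases (SD, n = 3 each), with a log2 fold change of 0.72 (SE 0.55) and overlapping groups. The fold change of Twist1 was 0.69 on the log2 scale (SE 0.72), and without distal 1 it was 0.06.

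The spread among the primary tumours set these genes apart from each other. For Snai2, Vim, Twist1 and Snai1 the highest primary library was 14.0, 9.11, 7.12 and 6.98 times the lowest, against a median of 2.25 times over the tested genes. Twist2, Fn1 and Prrx1 spanned 5.85, 5.35 and 4.26 times, and Zeb1 and Zeb2 spanned 2.17 and 1.81 times. Across the 6 metastases the span was 1.40 times for Zeb1, 1.62 for Vim, 1.69 for Snai2 and 1.89 for Snai1, between 2.24 and 2.93 for Zeb2, Twist2, Prrx1 and Fn1, and 4.70 for Twist1, against a median of 1.42 times. Set against the range of the 6 metastases, primary 1 lay within it for Snai1, Snai2, Twist1, Zeb2, Vim and Fn1 (6 of 9, and 70.8% of all tested genes) and above it for Twist2, Zeb1 and Prrx1 (3 of 9, and 16.1%). Primary 2 lay below the range for 8 of 9 genes, all but Twist2, as did 42.7% of all tested genes. Primary 3 lay below it for Snai1, Snai2, Twist1 and Vim (4 of 9, and 36.7%), within it for Zeb1, Zeb2, Prrx1 and Fn1, and above it for Twist2.

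**Figure D4:**
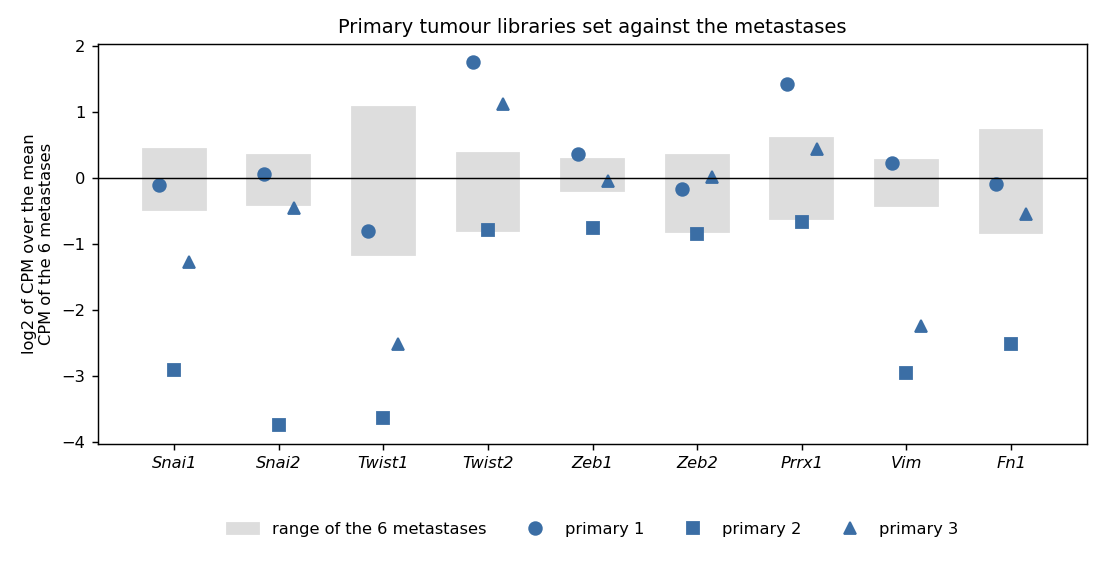
Each primary library set against the metastases, as log2 of its CPM over the mean CPM of the 6 metastases, with grey bars for the range of the 6 metastases. Primary 1 lies within the range for 6 of the 9 genes, primary 2 below it for 8 and primary 3 below it for 4.

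Per kilobase of exon, the mean level over the 6 metastases was 369 CPM for Vim (range 275 to 445) and 52.9 CPM for Fn1 (29.9 to 87.5), so the structural products stood above the regulators. Among the factors Snai2 led with 10.9 CPM per kilobase (8.17 to 13.8), followed by Snai1 with 7.58 (5.43 to 10.2) and Twist1 with 5.94 (2.66 to 12.5), and the ranges of these neighbours overlapped. Zeb1 at 2.45 (2.15 to 3.01) and Zeb2 at 2.32 CPM per kilobase (1.32 to 2.96) did not differ beyond their spread, and with the longest transcript as length Zeb2 stood above Zeb1. Prrx1 at 0.650 (0.422 to 0.991) and Twist2 at 0.127 CPM per kilobase (0.0734 to 0.165) came last, with ranges that overlapped neither each other nor those of the Zeb genes. In primary tumours the ranges were wider, from 47.7 to 435 CPM per kilobase for Vim and from 0.810 to 11.4 for Snai2.

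The genes whose levels ran most closely with each member were listed from 10149 tested genes of at least 10 CPM, by Pearson's r of log2(CPM + 1) over the 9 libraries, which share their depth scaling. The r over the 6 metastases alone is given after each set of 3 genes. For Vim they were Hnrnpd (r = 0.992), Sec23a and Pofut2 (0.991 each), with 0.83, 0.78 and 0.93 over the metastases. Snai1 ran with Sema6d (0.996), the homeobox gene Prrx2 (0.989) and Cpxm2 (0.988), with 0.96, 0.93 and 0.87 over the metastases. Snai2 ran with Rcn2 (0.995), the TGF-beta pseudoreceptor gene Bambi (0.995) and Hbp1 (0.993), with 0.91, 0.92 and 0.94 over the metastases. Prrx2, a paralog of Prrx1, had 42.5, 28.2 and 37.8 CPM in distal metastases, 36.9, 45.4 and 25.7 CPM in proximal metastases and 28.2, 1.33 and 9.09 CPM in primary 1, 2 and 3, unlike Prrx1, which was highest in primary 1. Twist1 ran with Gldn (0.976), which was also highest in distal 1 at 24.6 CPM, and with Rbm12 (0.941) and Entr1 (0.940), with 0.97, 0.72 and 0.86 over the metastases. Twist2 ran with Sema4g (0.931), Galnt4 (0.929) and B3galt5 (0.922), each highest in primary 1, but with only 0.30, 0.60 and 0.61 over the metastases. Zeb1 ran with the matrix genes Emilin1 (0.962) and Serpinf1 (0.928) and with Lhfp (0.923), with 0.86, 0.91 and 0.70 over the metastases. Zeb2 ran with Gas2l3 (0.961), Syde1 (0.917) and Peg13 (0.913), with 0.96, 0.91 and 0.93 over the metastases. Prrx1 ran with Atp2a3 (0.917), Fhl1 (0.892) and the matrix gene Ltbp4 (0.849), with 0.70, 0.79 and 0.83 over the metastases. Fn1 ran with Ccnyl1 (0.967), the actin-binding protein gene Cald1 (0.965) and Plekho2 (0.959), with 0.92, 0.98 and 0.81 over the metastases. These values are descriptions, and no test was made of them.

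Of 16 other transition factors and their helix-loop-helix partners, 15 could be tested and none passed with all 9 libraries (edgeR, 5 at an unadjusted p below 0.05 in both sites together). Without primary 1, 9 were higher and 1 lower in distal metastases, and 9 were higher and 1 lower in proximal metastases. At both sites the higher ones included Tcf12, Tcf4, Id1, Id3, Prrx2, Hic1, Hmga2 and Fosl1, and the lower one was the forkhead gene Foxc1. As background, 13.2% of all genes tested without primary 1 passed as higher in distal and 13.8% in proximal metastases. Tcf12 and Tcf4 encode E proteins, which pair with Twist1. Tcf12 had 1541, 1626 and 1322 CPM in distal metastases, 1766, 1492 and 1546 CPM in proximal metastases and 1516, 96.3 and 446 CPM in primary 1, 2 and 3. Without primary 1 its log2 fold change was 2.48 in distal (SE 0.59, adjusted p = 0.0230) and 2.58 in proximal metastases (SE 0.60, adjusted p = 0.0193). Tcf4 had 1126, 1179 and 999.8 CPM in distal metastases, 1359, 1154 and 1166 CPM in proximal metastases and 1137, 251 and 396 CPM in primary tumours. The list's median log2 fold change with all libraries was 0.83 in distal and 0.92 in proximal metastases.

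Of 14 corepressors and regulators of Snail turnover none passed with all 9 libraries (4 at an unadjusted p below 0.05 in both sites together). Without primary 1, 5 were higher and 1 was lower in each site, the lower one being the histone demethylase gene Kdm1a. In either direction 27.4% of all tested genes then passed in distal and 28.7% in proximal metastases. Gsk3b, whose kinase marks Snai1 for degradation, had 167 to 182 CPM in distal metastases, 165 to 203 CPM in proximal metastases and 176, 283 and 196 CPM in primary 1, 2 and 3. Ctbp1, a corepressor of the Zeb proteins, had 252 to 272 CPM in distal metastases, 245 to 267 CPM in proximal metastases and 258, 356 and 225 CPM in primary tumours. Neither gene passed the test, with or without primary 1. With all libraries the median log2 fold change of the list was 0.18 in distal and 0.21 in proximal metastases, against -0.03 and -0.05 over all tested genes.

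Among 15 inducing ligands, receptors and Smad genes, Met and Hgf passed with all 9 libraries in the comparison of both sites, both lower in metastases. In that comparison 3.71% of all tested genes passed. Met, the receptor of the scatter factor Hgf, had 11.2, 10.6 and 16.7 CPM in distal metastases, 10.9, 14.5 and 9.73 CPM in proximal metastases and 14.9, 96.7 and 116 CPM in primary 1, 2 and 3. Its log2 fold change was -2.63 (SE 0.51, edgeR adjusted p = 0.0364). Primary 1 again sat with the metastases. Hgf had 0.275 to 1.28 CPM in distal metastases, 1.20 to 1.56 CPM in proximal metastases and 3.14, 8.50 and 4.68 CPM in primary 1, 2 and 3, so that every primary library was above every metastasis, as for 5.99% of all tested genes (log2 -2.41, SE 0.48, adjusted p = 0.0375). Of these 2 calls 0 were left when any single library other than primary 1 was left out. In single sites none of the 15 passed with all libraries, and the medians were -0.29 in distal and -0.33 in proximal metastases. Without primary 1, 1 was higher and 4 were lower in distal metastases, and 2 were higher and 5 lower in proximal metastases. Of all genes tested, 27.4% then passed in distal and 28.7% in proximal metastases.

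Of 18 mesenchymal effector genes, none passed with all 9 libraries (2 at an unadjusted p below 0.05 in both sites together). Without primary 1, 4 were higher in distal metastases and 3 in proximal metastases, and none was lower. Among all genes then tested, 13.2% passed as higher in distal and 13.8% in proximal metastases. The median log2 fold change of the 18 with all libraries was 0.41 in distal and 0.30 in proximal metastases. Sparc, a matrix protein gene, had 703, 648 and 633 CPM in distal metastases, 580.5, 757 and 474 CPM in proximal metastases and 696, 262 and 354 CPM in primary 1, 2 and 3, and without primary 1 rose by 1.12 in distal (SE 0.24, adjusted p = 0.0153) and 0.99 in proximal metastases (SE 0.24, adjusted p = 0.0212) on the log2 scale. Col1a1, a collagen gene of fibroblasts, had 599 to 688 CPM in distal metastases, 336 to 783 CPM in proximal metastases and 734, 386 and 377 CPM in primary tumours and did not pass. Col5a1 and Loxl2 were also called without primary 1 at both sites.

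The relatives of Vim were mixed. Of 11 intermediate filament and linker genes 8 could be tested and none passed with all libraries (3 at an unadjusted p below 0.05 in both sites together). Without primary 1, 2 were higher (Prph and Lmnb1) and 1 lower (Plec) in distal metastases, and 1 was higher (Prph) and 2 were lower (Synm and Plec) in proximal metastases. Over all tested genes 27.4% then passed in distal and 28.7% in proximal metastases. Prph ran as Vim did, with 11.4, 11.7 and 11.3 CPM in distal metastases, 9.44, 12.3 and 11.6 CPM in proximal metastases and 14.2, 1.52 and 2.48 CPM in primary 1, 2 and 3. Medians of the 8 with all libraries were -0.45 in distal and -0.95 in proximal metastases. Plec, the gene of the linker plectin, had 249.7, 299 and 315 CPM in distal metastases, 246, 271 and 234 CPM in proximal metastases and 283, 1051 and 372 CPM in primary 1, 2 and 3, the reverse of Vim in primary 2. Lmna, which encodes the nuclear lamins A and C, had 295 to 325 CPM in distal metastases, 249.7 to 298 CPM in proximal metastases and 273, 979 and 295 CPM in primary tumours. Of 11 fibronectin receptors and assembly genes none passed with all libraries (2 at an unadjusted p below 0.05 in both sites together). Medians were 0.08 in distal and -0.18 in proximal metastases. Without primary 1 only Tgm2, a transglutaminase that cross-links fibronectin, passed. It had 823, 731 and 769 CPM in distal metastases, 919, 759.6 and 790.0 CPM in proximal metastases and 712, 225 and 168 CPM in primary 1, 2 and 3, and was higher in distal metastases (edgeR adjusted p = 0.00125) and in proximal metastases (log2 2.09, SE 0.19, adjusted p = 0.00111). Itgb1, the integrin beta-1 gene, stayed between 526 and 683 CPM in all libraries.

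With all 9 libraries, the 20 epithelial genes listed as targets of these repressors all had negative log2 fold changes at both sites. Medians were -1.17 in distal and -1.15 in proximal metastases, against -0.03 and -0.05 over all tested genes, and these comparisons share the 3 primary libraries. The uniform sign depended on the primary libraries: 4 of the 20 were positive in distal and 3 in proximal metastases without primary 2. The numbers were 1 and 2 without primary 3. With all 9 libraries 4 of 20 passed as lower in both sites together, 1 in distal (Cldn7) and 0 in proximal metastases (10 at an unadjusted p below 0.05), and without primary 1, 11 of 20 were lower at each site. Over all tested genes 3.71% passed in both sites together, 0.0879% in distal and 0.0494% in proximal metastases. Without primary 1 these shares, as higher or lower, were 27.4% in distal and 28.7% in proximal metastases. Leaving out any other single library brought the 4 calls to 2 or 3, and the call of Cldn7 in distal metastases was also held without primary 2 and lost without each of the other 7 libraries. In these runs 22 to 251 genes passed over the whole table in both sites together, and 26 in distal metastases without primary 2. Cldn3, a claudin of epithelial tight junctions, had 2.30, 2.57 and 2.70 CPM in distal metastases, 1.98, 2.80 and 4.47 CPM in proximal metastases and 42.7, 402 and 297 CPM in primary 1, 2 and 3. Its log2 fold change over both sites was -6.47 (SE 0.62, edgeR adjusted p = 0.00672). Cldn7 had 2.75 to 3.52 CPM in distal metastases, 2.35 to 6.31 CPM in proximal metastases and 50.5, 268 and 132 CPM in primary tumours (log2 -5.30, SE 0.50, adjusted p = 0.00669). Esrp1, a splicing regulator of epithelial cells, had 7.06 to 9.49 CPM in distal metastases, 2.34 to 7.53 CPM in proximal metastases and 25.5, 121 and 122 CPM in primary tumours (log2 -3.86, SE 0.51, adjusted p = 0.0148). For these 3 genes primary 1 lay between the metastases and the other primary tumours, whereas for Vim, Snai1 and Twist1 it lay within the metastases. Krt19, the 4th gene called, is also in the mesothelial list. Cdh1, named after its values were seen because it is the classical Snail and Zeb target, had 274, 267 and 271 CPM in distal metastases, 263, 211 and 339.9 CPM in proximal metastases and 292, 2419.8 and 884 CPM in primary 1, 2 and 3. It did not pass with all libraries (log2 -2.15 over both sites, adjusted p = 0.0614) and fell by 2.59 in distal and 2.58 in proximal metastases without primary 1 (edgeR adjusted p = 0.00560 and 0.00509).

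Markers of other cells moved with some of these values, and their part in them was not tested. Of 11 prostate epithelial markers, led by Krt8, 6 were lower in both metastatic sites together, 10 without primary 1, 3 without primary 2 or primary 3 and 1 without any single metastasis. Over all tested genes 3.71% passed in both sites together with all libraries and 34.8% without primary 1. The 8 adipocyte markers, led by Cfd, summed to 27.9, 69.2 and 481 CPM in distal metastases, 136, 568 and 227 CPM in proximal metastases and 400.4, 31.3 and 146 CPM in primary 1, 2 and 3, and Lep had no count in any distal metastasis or in primary 3. The 10 skeletal muscle markers, led by Acta1, summed to 14.7, 822 and 1026 CPM in distal metastases, 7.93, 17.03 and 7.29 CPM in proximal metastases and 45.4, 14.7 and 23.7 CPM in primary tumours, with Myh2 and Myh4 at 0 in distal 1 and in every proximal library. Twist1 was highest in distal 1, where the muscle markers summed to 14.7 CPM, and a tie between them was not tested. Smooth muscle and pericyte markers, led by Rgs5, summed to 224 to 393 CPM in distal metastases, 163 to 251 CPM in proximal metastases and 187 to 466 CPM in primary tumours. Endothelial markers, led by Vwf, summed to 146 to 246 CPM in distal metastases, 155 to 229 CPM in proximal metastases and 275 to 359.7 CPM in primary tumours. The 6 matched mesothelial markers summed to 278 to 459.7 CPM in distal metastases, 189.9 to 394 CPM in proximal metastases and 413, 5258 and 1143 CPM in primary tumours, where Krt19 made up most of the sum. With all libraries 3 of the 6 had positive log2 fold changes in distal metastases (median 0.13), 5 in proximal metastases (median 0.79) and 5 in both sites together (median 0.51), and none was called higher. T cell markers, led by Lck, summed to 1.90 to 4.13 CPM in distal metastases, 1.76 to 18.4 CPM in proximal metastases and 5.98 to 20.4 CPM in primary tumours. Schwann cell markers, led by Mbp, summed to 5.59 to 11.4 CPM in distal metastases, 4.98 to 9.40 CPM in proximal metastases and 15.8 to 117 CPM in primary tumours, with Sox10 at 0 in distal 1, distal 2 and proximal 1. With all libraries 1 marker was called in the mesothelial list (Krt19) and 1 in the Schwann list in both sites together, and none in the macrophage, T cell, adipocyte, skeletal muscle, endothelial and smooth muscle lists. Without primary 1, 5 macrophage markers were lower in proximal and 3 in distal metastases, and 5 skeletal muscle markers were higher in distal metastases, as were 6 without distal 1. Among all genes tested without primary 1, 28.7% passed in proximal and 27.4% in distal metastases. Over the whole table without distal 1, 35 genes passed in distal metastases.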

How the data were processed

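Bulk RNA was sequenced from 9 libraries, 3 per group, with groups taken from the tissue labels. The authors deposited raw, whole-number counts per Ensembl gene. The submitters' processing notes name TopHat2 2.1.0 and Bowtie2 2.2.6.0 beside HTSeq 0.6.0, FastQC 0.11.4, DESeq2 1.14.1 and R 3.2.3, on genome build GRCm38.p3. Strand setting and annotation release are not given in the labels used, so overlapping and antisense genes are uncertain. Of the 9 genes, Zeb2 overlaps Zeb2os, and the genes overlapping Zeb1, Fn1, Twist2 and Prrx1 had at most 30 counts in a library. One other item of the genotype label is not reported here.

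From the counts, CPM (TMM scaling) and tests were computed with edgeR 4.0.16 in R 4.3.3: quasi-likelihood F-test with robust shrinkage, 1 fit of all 9 libraries (6 residual degrees of freedom), after filterByExpr (minimum count 10, minimum total 15), which kept 18204 genes. Benjamini-Hochberg adjusted p-values below 0.05 were called. The fit takes 1 dispersion per gene for all groups, while the primary libraries varied most. SE is the size of the log2 fold change divided by the root of the F statistic. Symbols were matched to 46574 of 47069 identifiers through GENCODE M21, which also gave positions and exon lengths. No libraries agreed within sampling noise (lowest chi-square per gene 23.0). The method was tested on simulated data in which every gene had the same dispersion and no library stood apart. The uneven primary group of these data was thus not simulated. Alternatives were DESeq2 1.42.0, limma-voom (limma 3.58.1) with and without quality weights, median-ratio size factors, unscaled library totals, 2 other filters, the compared groups alone and leaving out each library.

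The 9 genes and the lists were chosen with earlier results of these data known. Named were all 9 genes, Ctnnb1, up to 3 called members of each list by adjusted p filled to 2 by mean CPM, the highest member of each marker list and the 3 genes most correlated with each of the 9 (mean CPM of at least 10, no predicted or clone-based names). Other genes named were chosen after their values were seen. Labels do not say that replicates came from separate animals within a group beyond the 3 mice stated, so p-values measure the spread between these libraries.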

Additional observations from a re-analysis of the deposited data

How the results depend on the processing

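None of the 9 genes passed between distal and proximal metastases under any alternative run. Against primary tumours the number called was 0 with median-ratio size factors, library totals alone, limma-voom, both other filters and, for single sites, the compared groups alone. It was 1 with voom and sample quality weights (Vim) in distal, in proximal and in both sites together, and 1 with DESeq2 (Twist1) in distal and in both sites together. Leaving out 1 library at a time gave 0 to 3 called in distal, 0 to 3 in proximal, 0 to 3 in both sites together and 0 to 0 between the sites, and the 3 were Snai1, Twist1 and Vim without primary 1. The genes called over the whole table moved far more: in distal metastases 16 became 1444 with DESeq2 and 3127 with quality weights, and in proximal metastases 9 became 1486 and 3607. In both sites together 676 became 2590 with DESeq2, 3871 with quality weights and 97 with limma-voom.

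Some signs turned with other settings. Zeb1 in proximal against primary was -0.00069 with DESeq2, -0.064 with quality weights and -0.013 with a filter of at least 1 CPM in 3 libraries. Zeb2 in distal against primary was -0.024 with quality weights. Snai2 in distal against proximal was -0.0038 with median-ratio size factors, -0.0039 with DESeq2, -9.0e-05 with limma-voom, -0.0035 with quality weights and -0.0017 without a filter. Leaving out 1 library, the log2 fold changes whose sign turned ranged for Zeb1 from -0.24 to 0.31 in proximal, -0.12 to 0.43 in distal, -0.18 to 0.37 in both sites and -0.016 to 0.24 between the sites. They ranged for Prrx1 from -0.84 to 0.20 in distal and -1.02 to 0.020 in both sites, and for Fn1 from -0.10 to 0.83 in proximal against primary. Between the sites they ranged from -0.12 to 0.27 for Snai1, -0.21 to 0.17 for Snai2, -0.39 to 0.14 for Twist2 and -0.38 to 0.093 for Zeb2. The cause was not tested. Another scaling moved the median of all genes by less than 0.1 on the log2 scale. Length by the longest transcript put Zeb2 at 5.06 CPM per kilobase, above Zeb1 at 4.33.

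No paired analysis was possible because the labels do not tie samples to mice and the library numbers are in accession order. Twist2, at 6 to 51 counts per library, is limited by depth. Without primary 1 the comparisons rest on 2 primary libraries.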
